A study of Homo sapiens with 12 samples.

Results

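The mitochondrial ribosomal proteins were taken as the protein-coding genes whose symbol is MRPL or MRPS followed directly by a number. By this rule 78 of the 58735 genes in the table were members, 49 with MRPL names and 29 with MRPS names, and all 78 passed the filter on low expression. They lay on 21 chromosomes and so did not form 1 locus.

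The mitochondrial ribosome, or mitoribosome, translates the few messenger RNAs of the mitochondrial genome, which encode core subunits of the respiratory chain and of ATP synthase. Its ribosomal RNAs are transcribed in the organelle, whereas every protein of its large and small subunits is encoded in the nucleus, made in the cytosol and imported. Some of these proteins descend from bacterial ribosomal proteins, and others were added during the evolution of mitochondria. Colonic epithelial cells rely on oxidative metabolism, and HTRA2, the gene silenced in this study, encodes a serine protease of the mitochondrial intermembrane space.

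The study sequenced poly(A)-selected RNA of NCM460, a line of normal human colonic epithelial cells, in 4 groups of 3 libraries: medium alone, TNF-α, TNF-α with 5-OH-TMT (bufotenidine, a quaternary ammonium derivative of the toad tryptamine bufotenine), and TNF-α after siRNA knockdown of HTRA2. The first 3 groups are labelled wild type, and the last 3 groups all received TNF-α. It asked how the compound and the loss of its proposed target, HTRA2, altered the response to TNF-α. All libraries came from 1 cell line, dose and duration of the treatments are not in the labels, and nothing states whether the knockdown libraries used 1 siRNA or several. Nothing in the labels says whether replicates were separate cultures, so p-values measure only the spread between these libraries.

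No group with a control siRNA was among the 12 libraries analysed here, so effects of the knockdown and of siRNA delivery cannot be told apart. HTRA2 had an FPKM (fragments scaled for gene length and library depth) of 15.4, 14.0 and 14.2 in the TNF-α libraries and of 7.44, 7.18 and 7.22 in the knockdown libraries, a log2 fold change of −0.98 by limma (adjusted p = 2.8e-05). Between 31008429 and 37624399 reads per library lay on genes. Of the 8 epithelial and intestinal markers, 5 had a mean FPKM of at least 1 (EPCAM, CDH1, KRT8, KRT18 and KRT19), while the intestinal markers CDX2, VIL1 and KRT20 had at most 2 reads in any library. Of 8 markers of immune, stromal and endothelial cells, 1 (COL1A1, mean FPKM 1.61) reached that level. In the second knockdown library 2.95% of reads lay on genes of the mitochondrial genome, against 3.69% to 4.68% in the other libraries.

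Across the members the mean FPKM over the 12 libraries ran from 0.437 to 125, with a median of 19.7, and 55 of 78 had a mean of at least 10. The highest 5 were MRPL14 (mean FPKM 125), MRPS34 (122), MRPS18B (122), MRPL37 (88.0) and MRPL15 (83.1). MRPL14, MRPS34 and MRPS18B were above MRPL37 and MRPL15 in all 12 libraries. The order within these groups changed between libraries, MRPL14 lying above MRPS34 in 9 of 12 and MRPL37 above MRPL15 in 9 of 12. The lowest 5 were MRPL38 (0.437), MRPL46 (0.815), MRPS24 (1.16), MRPL53 (1.27) and MRPS18C (1.39). The subunits have a fixed stoichiometry in the assembled particle, but FPKM divides by the summed length of all annotated exons, so a gene with long, little-used exons has a low value. Shared exons are a further limit, and not only on the low members. At least 92.2% of the coding bases of MRPS24, MRPL53, MRPL38, MRPS17, MRPL12 and MRPL30 also belong to exons of another annotated protein-coding gene. For MRPL46 the share was 64.0%, on the same strand, and for MRPS18C 45.1%, on the opposite strand. How reads on such bases were assigned, and whether strand was used, is not given in the sources used here. Of 75 pseudogenes named after members, 54 had 0 reads in all libraries. The largest share belonged to MRPL45P2, with 6.78% of the reads of MRPL45.

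The summed FPKM of the 78 members was lower in the knockdown than in every other library. The sum was 2294, 2505 and 2264 in medium, 2213, 2305 and 2249 with TNF-α, 2212, 2331 and 2118 with TNF-α and 5-OH-TMT, and 1809, 1832 and 1969 in the knockdown. The first 3 groups overlapped with each other and the knockdown with none of them. FPKM are relative to the library, so less of these RNAs per cell and a different makeup of the cells cannot be told apart. The mean in the knockdown was 0.829 times that of the TNF-α libraries (1870 ± 86.8 against 2256 ± 46.7, SD, n = 3). As a share of reads the members took 0.397% to 0.422% in the knockdown and 0.453% to 0.534% in the 9 other libraries.

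**Figure D1:**
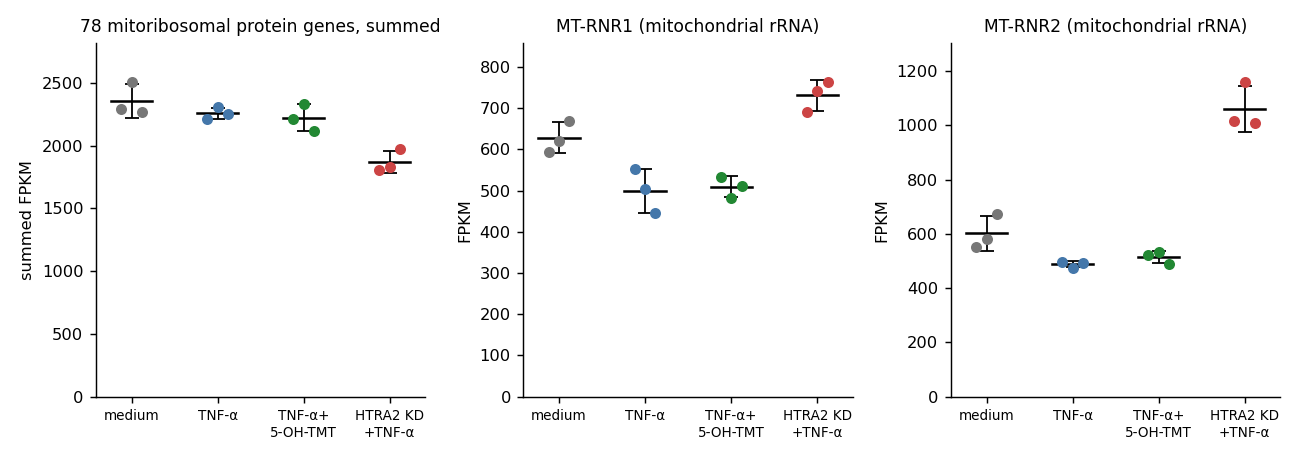
Summed FPKM of the 78 mitoribosomal protein genes (left) and FPKM of the mitochondrial ribosomal RNAs MT-RNR1 (middle) and MT-RNR2 (right), by group. Points are libraries, horizontal lines are means and whiskers are SD (n = 3). The knockdown libraries had a summed level of 1809 to 1969, under the other 9 libraries, and an MT-RNR2 level of 1010 to 1160, above them.

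In the knockdown, members of both subunits were lower than with TNF-α alone, by modest amounts. With limma on log2(FPKM + 0.1), 28 of 78 members (35.9%) were lower and 0 were higher at an adjusted p under 0.05. Over all 18079 genes tested 8.08% were called lower and 9.35% higher in this comparison. At an unadjusted p under 0.05, 50 members were lower and 0 higher, against 15.5% and 15.6% of all genes. With voom on the recovered reads 35 were lower and 0 higher, against 9.6% and 10.8%. The fitted log2 fold change was negative for 73 members, and its median was −0.26, against −0.0034 over all genes tested. Called members are easier to find at high levels, and the share called lower was 17.1% among the 4163 genes whose FPKM averaged 10 or more, against 24 of the 55 members at that level (43.6%). Without the first knockdown library 16 members were called, and without the second TNF-α library 17, so these counts rest in part on single libraries. Leaving out the second knockdown library, the one with few mitochondrial reads, gave 29.

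No member reached the study's own threshold (a 2-fold change and an unadjusted p up to 0.05) in this comparison, where 4.23% of all genes did. The 3 knockdown values lay below the 3 TNF-α values for 48 members (61.5%) and above them for 0. Over all genes these shares were 16.4% and 17.5%. For 27 members (34.6%) every knockdown library was below all 9 others, which held for 7.36% of the genes tested.

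**Figure D2:**
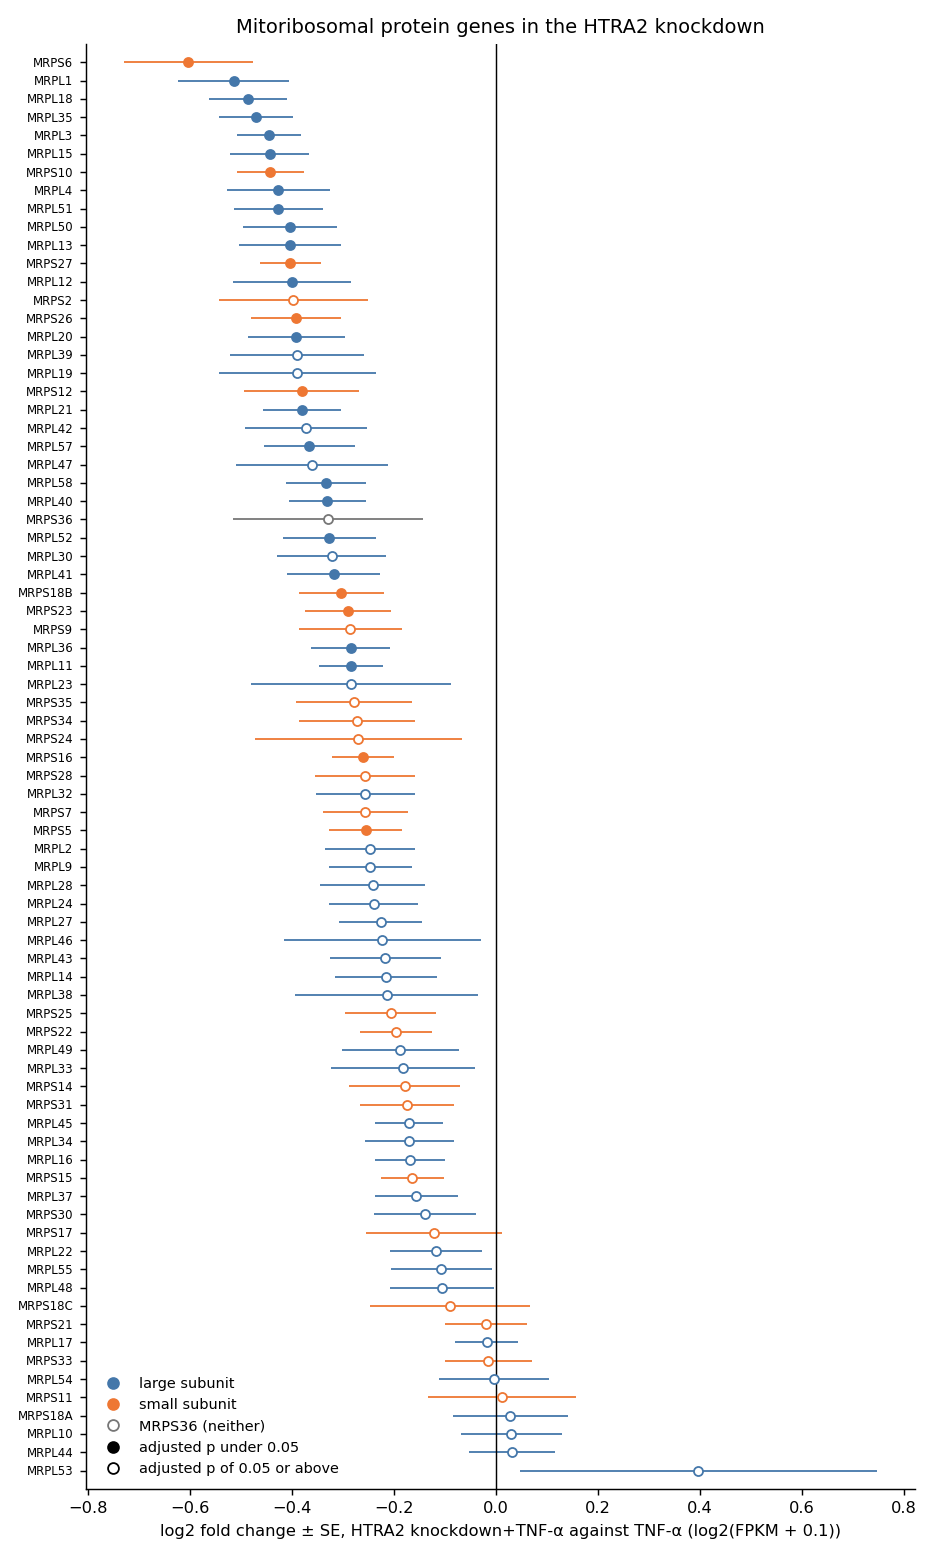
Log2 fold change (± SE, from the fit to 12 libraries) of each of the 78 members, HTRA2 knockdown with TNF-α against TNF-α, ordered by size. Filled points have an adjusted p under 0.05, and colours mark the subunit. The filled points run from −0.60 for MRPS6 to −0.26 for MRPS5, and 5 members lie to the right of 0.

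MRPS6, a small-subunit protein with a bacterial counterpart (chromosome 21, 34073224 to 34143034, GRCh38), had the largest fitted fall with all libraries. Of its coding bases 49.3% also belong to exons of other genes on the same strand (AP000317.2 and SLC5A3 overlap it), and how reads on them were assigned is not given. Its FPKM was 5.32, 5.15 and 5.09 in medium, 4.91, 4.43 and 4.88 with TNF-α, 4.52, 4.44 and 4.47 with 5-OH-TMT, and 2.46, 3.85 and 3.09 in the knockdown. Every knockdown library was below the other 9, and the knockdown libraries were also the most spread. The log2 fold change against TNF-α was −0.60 (SE 0.13, adjusted p = 0.0063). Without the first knockdown library it was −0.45, smaller than the falls of MRPL1 (−0.48) and MRPL18 (−0.46), and in the fit to only these 2 groups MRPS6 was not called (adjusted p = 0.061).

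MRPL1, on chromosome 4 (77862520 to 77952790), is the counterpart of the bacterial protein that forms the mobile L1 stalk, through which spent tRNAs leave. Its FPKM was 6.42, 5.98 and 7.83 in medium, 7.37, 7.43 and 7.65 with TNF-α, 4.61, 5.58 and 4.59 with 5-OH-TMT, and 4.96, 5.65 and 5.03 in the knockdown. Both treated groups lay below TNF-α and overlapped with each other. The knockdown fell by 0.51 on the log2 scale (SE 0.11, adjusted p = 0.0068).

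MRPL18, on chromosome 6 (159789812 to 159798436), belongs to the family of large-subunit proteins that bind 5S rRNA in bacteria. Its FPKM was 45.9, 46.3 and 50.0 in medium, 48.3, 45.7 and 42.7 with TNF-α, 46.0, 41.8 and 44.7 with 5-OH-TMT, and 31.2, 30.5 and 35.8 in the knockdown. The knockdown libraries were the lowest 3 of the 12, and the other groups overlapped. Its log2 fold change in the knockdown was −0.49 (SE 0.08, adjusted p = 0.0011).

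MRPL35, on chromosome 2 (86199355 to 86213794), is another large-subunit protein with a bacterial counterpart. FPKM values were 10.3, 10.1 and 10.1 in medium, 9.46, 10.7 and 9.90 with TNF-α, 8.46, 8.39 and 8.54 with 5-OH-TMT, and 6.83, 7.90 and 6.86 in the knockdown. The 5-OH-TMT libraries lay between the other groups without overlap. The knockdown differed from TNF-α by −0.47 on the log2 scale (SE 0.07, adjusted p = 0.0010), and the 5-OH-TMT group by −0.24 (adjusted p = 0.13, not called).

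MRPL3, on chromosome 3 (131462212 to 131502983), reaches towards the peptidyl transferase centre, where peptide bonds are made. It had FPKM values of 45.0, 40.2 and 43.5 in medium, 43.6, 43.3 and 42.7 with TNF-α, 33.6, 36.2 and 34.1 with 5-OH-TMT, and 30.7, 33.8 and 30.7 in the knockdown. Neither treated group overlapped with TNF-α or medium, and they overlapped with each other by 1 library. Its log2 fold change was −0.45 in the knockdown (SE 0.06, adjusted p = 0.00057).

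**Figure D3:**
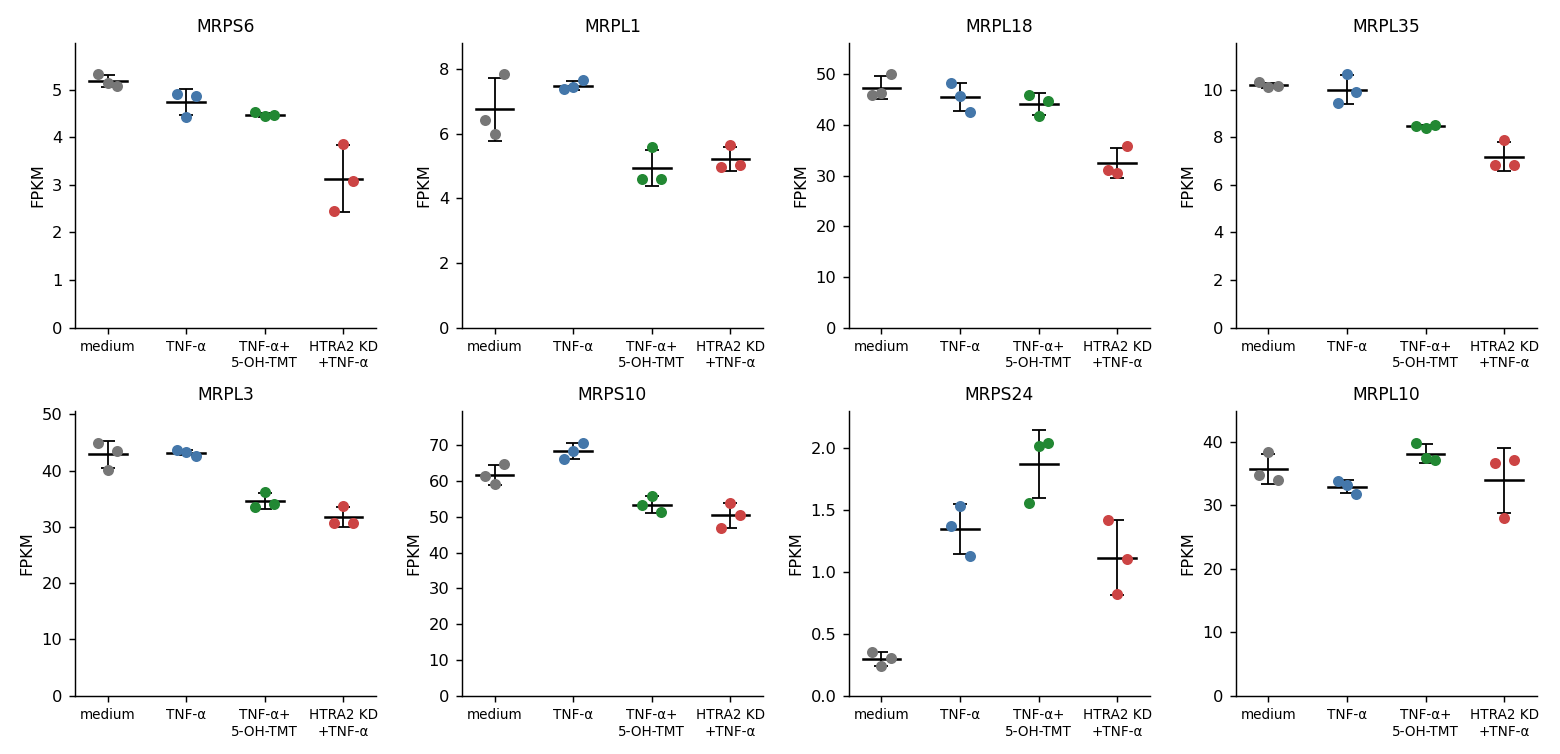
FPKM of 8 members by group, each point a library, with the mean (line) and SD (whiskers, n = 3). MRPS6, MRPL1, MRPL18, MRPL35 and MRPL3 fell most in the knockdown, MRPS10 had one of the smallest p-values with 5-OH-TMT, MRPS24 rose with TNF-α from 0.299 to 1.34, and MRPL10 is a member that was not called in any comparison with TNF-α or medium.

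The falls were spread over both subunits and over both evolutionary classes. Of 51 large-subunit members 19 were called lower in the knockdown, with a median log2 fold change of −0.26 over the 51, and of 26 small-subunit members 9, with the same rounded median of −0.26. Of 46 members with a bacterial counterpart 17 were called lower, and of 31 added in mitochondria 11. The 2 counts by subunit include MRPS18A and MRPS30 in the large subunit, where these proteins are found despite their names. MRPS36, since assigned to the 2-oxoglutarate dehydrogenase complex and counted in neither subunit, changed by −0.33 on the log2 scale, which was not called (adjusted p = 0.26). Of the 37 members that share no exon base with another gene 17 were called lower (45.9%). The counts in these sets stand against 8.08% of all genes tested called lower and 9.35% higher. Where FPKM averaged 10 or more, 17.1% of 4163 genes were called lower.

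For 15 members a site or an activity in the ribosome was listed. Of these, 7 were called lower in the knockdown (46.7%), with a median log2 fold change of −0.28 over the 15. Over all genes tested 8.08% were called lower and 9.35% higher, and 17.1% were lower where FPKM averaged 10 or more. At the stalk, which recruits the translation factors, MRPL12 fell from an FPKM of 33.4 ± 2.85 to 25.2 ± 1.84 (SD, n = 3, adjusted p = 0.033) and MRPL11 had a log2 fold change of −0.28. Their neighbour MRPL10, which anchors MRPL12, stood at 33.0 ± 1.08 and 33.9 ± 5.18 (SD, n = 3), a log2 fold change of 0.03 with an SE of 0.10. Near the peptidyl transferase centre MRPL3 was called lower, while MRPL27 was not (log2 fold change −0.23, adjusted p = 0.078), nor was MRPL16 near the tRNA sites (−0.17, adjusted p = 0.11). MRPL4, which lines the polypeptide exit tunnel, fell from 18.2 ± 1.30 to 13.6 ± 1.29 (SD, n = 3, limma adjusted p = 0.013). At the same tunnel or its exit MRPL22, MRPL23, MRPL24, MRPL44 and MRPL45 were not called, with log2 fold changes of −0.28 to 0.03. MRPL58, a peptidyl-tRNA hydrolase built into the large subunit that rescues stalled ribosomes, fell from 29.1 ± 0.849 to 23.1 ± 1.72 (SD, n = 3, limma adjusted p = 0.012). MRPS12, at the decoding centre, fell by 0.38 on the log2 scale, and MRPS27, a pentatricopeptide repeat protein, by 0.40. Beside MRPL10, the members with a fitted value above 0 were MRPS11, MRPS18A, MRPL44 and MRPL53, of 0.01 to 0.40, and none was called. MRPL53, at 0.40, had an SE of 0.35.

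As a description, promoters of the members were read for 3 short motifs of factors known to act on nuclear genes for mitochondrial proteins. RefSeq promoters on GRCh38.p14, from 250 bases before to 50 after a start site, were matched for 69 of the 78 members, with 85 start sites. MRPL2, MRPL10, MRPL13, MRPL15, MRPL21, MRPL23, MRPL35, MRPS28 and MRPS36 had no entry and were not searched. Of these, MRPL15 and MRPL35 were among the 10 members with the largest falls in the knockdown. Both strands were searched. The ETS core CCGGAAG, bound by GABP among others, stood in 33 of the 85 member promoters (38.8%) and in 10.3% of all 35116 promoters. The YY1 core AAGATGGC stood in 23 (27.1%), against 2.89% of all, and the NRF1 core GCGCATGC in 6 (7.06%), against 3.05%. The YY1 core contains ATG, so that it can coincide with a start codon, and the ETS and YY1 letters could overlap by 3 bases but did so in 0 member promoters. The median position of the ETS matches was 26 bases before the start site and that of the YY1 matches 10 bases after it. The ETS core was present in 12 of the 24 members called lower in the knockdown that had a promoter and in 18 of the 45 not called. For YY1 these counts were 9 of 24 and 12 of 45, and for NRF1 2 of 24 and 4 of 45. The 35116 promoters were not limited to genes expressed here, and shares over expressed genes were not counted. A match is a description of these letters only.

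The 100 bases before the start site are shown for those of the 10 members with the largest falls that hold a core in this stretch, with the ETS core, or its reverse complement CTTCCGG, in capitals, at chr6:159790367-159790466 (plus strand), chr3:131502972-131503071 (minus strand) and chr6:42217862-42217961 (minus strand).
MRPL18: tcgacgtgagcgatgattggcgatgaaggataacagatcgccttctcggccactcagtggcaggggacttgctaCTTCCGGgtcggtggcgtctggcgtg
MRPL3: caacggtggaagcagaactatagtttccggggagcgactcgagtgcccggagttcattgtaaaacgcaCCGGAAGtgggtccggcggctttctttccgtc
MRPS10: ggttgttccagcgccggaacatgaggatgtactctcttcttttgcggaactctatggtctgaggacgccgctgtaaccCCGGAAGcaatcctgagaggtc

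The YY1 core lay after the start site in 3 of these 10 members, of which MRPL15 and MRPL35 were not searched. For the 3, 26 bases around it are shown, with the core in capitals, at chr6:42217836-42217861, chr12:6493225-6493250 and chr9:101398579-101398604, all on the minus strand.
MRPS10: gggaccggcAAGATGGCggcgcggac
MRPL51: gtaaggcccAAGATGGCtgtcttcgc
MRPL50: atctcatcgAAGATGGCggcgcgatc
These 3 members fell in the knockdown by 0.44, 0.43 and 0.40 on the log2 scale, with adjusted p-values from limma of 0.00081, 0.0055 and 0.0098.

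With 5-OH-TMT, no member passed the test against TNF-α. The count was 0 of 78 with limma at an adjusted p under 0.05, where 0.0332% of all genes tested were called higher and 0.00553% lower. At an unadjusted p under 0.05, 20 members were lower and 4 higher, against 10.5% and 9.6% of all genes. With voom on the recovered reads 3 were lower and 0 higher, against 0.537% and 0.769%. The median log2 fold change of the members was −0.062, against 0 over all genes, and it was −0.032 without the third 5-OH-TMT library, −0.096 with voom and −0.10 with libraries rescaled to the same sum. No member reached the study's threshold, which 1.5% of all genes did. Groups did not overlap for 22 members that were lower (28.2%) and 11 that were higher, against 15.5% and 16.3% of all genes.

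The smallest p-values with 5-OH-TMT belonged to MRPL1, MRPS10 and MRPL3, none of which was called. MRPL1, with the values given for it, had a fitted log2 change of −0.60 (SE 0.11, adjusted p = 0.069). MRPS10, a small-subunit protein with a bacterial counterpart, had FPKM values of 61.3, 59.2 and 64.8 in medium, 66.2, 68.5 and 70.7 with TNF-α, 53.3, 55.8 and 51.2 with 5-OH-TMT, and 46.8, 53.9 and 50.6 in the knockdown. Its 5-OH-TMT libraries lay below all medium and TNF-α libraries and overlapped with the knockdown, with a log2 fold change of −0.36 (SE 0.07, adjusted p = 0.072). MRPL3 differed from TNF-α by −0.32 (SE 0.06, adjusted p = 0.081). All 3 were called lower when genes with a mean FPKM under 1 were left out, with adjusted p-values of 0.032, 0.040 and 0.049, and in the fit to only these 2 groups, where 6 members were called lower and 1 higher. The share of all genes called was not counted under these settings, so these member counts have no background beside them.

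The knockdown was also compared with the 5-OH-TMT libraries in the same fit, a test of the difference between the 2 effects. In this comparison 29 of 78 members (37.2%) were lower in the knockdown and 0 higher, against 7.43% and 7.85% of all genes tested. Among those called, MRPL4 differed by −0.57 (adjusted p = 0.0037), MRPS12 by −0.53 (0.011), MRPL58 by −0.47 (0.0025), MRPL55 by −0.45 (0.012) and MRPL18 by −0.44 (0.0032). For the members with the smallest p-values with 5-OH-TMT the groups were not told apart, the difference being 0.08 for MRPL1 (SE 0.11, adjusted p = 0.66), −0.08 for MRPS10 (SE 0.07, adjusted p = 0.43) and −0.13 for MRPL3 (SE 0.06, adjusted p = 0.21). These members were picked by their low values in the same 5-OH-TMT libraries, which favours a small difference. Whether the 2 effects are alike was not tested.

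**Figure D4:**
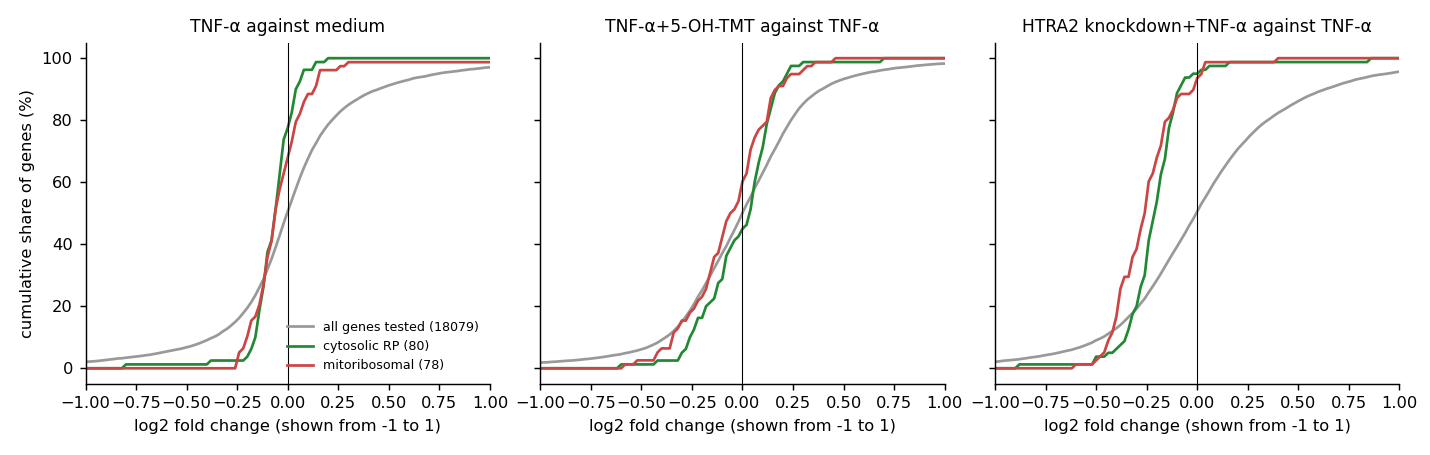
Cumulative share of genes by log2 fold change in the 3 comparisons, for the 78 mitoribosomal protein genes (red), 80 cytosolic ribosomal protein genes (green) and all 18079 genes tested (grey). In the knockdown the median was −0.26 for the mitoribosomal genes and −0.21 for the cytosolic ones, and in the other comparisons the mitoribosomal medians were −0.064 and −0.062.

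Against medium, the FPKM of MRPS24 was higher with TNF-α, and no other member passed the test. With limma 1 of 78 members was called higher and 0 lower, where 3.22% and 0.885% of all genes were called. At an unadjusted p under 0.05, 3 were higher and 5 lower (3.85% and 6.41%), against 8.87% and 5.92% of all genes. With voom 1 was higher and 0 lower, against 3.26% and 1.5%. The median log2 fold change was −0.064, −0.036 without the second medium library, and −0.0020 over all genes. Groups did not overlap for 5 higher members and 13 lower ones (16.7%), against 11.1% and 8.74% of all genes. The called member was also the only one of the 78 at the study's threshold in this comparison, which 2.73% of all genes reached.

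MRPS24, a small-subunit protein whose bacterial counterpart is S3, lies on chromosome 7 (43866558 to 43869893). It had an FPKM of 0.353, 0.239 and 0.305 in medium, 1.37, 1.53 and 1.13 with TNF-α, 1.56, 2.01 and 2.04 with 5-OH-TMT, and 1.42, 0.817 and 1.10 in the knockdown. All 9 libraries that received TNF-α were above the 3 medium libraries. The log2 fold change with TNF-α was 1.86 (SE 0.20, adjusted p = 0.00017). At this low level its size depended on the pseudocount, being 0.85 with a pseudocount of 1 and 2.14 with 0.01, and it was called with both. These values rest on 20 to 32 reads per library in medium and on 110 to 131 with TNF-α. Of its coding bases 92.2% also belong to the readthrough gene URGCP-MRPS24, which had 0 reads in all 12 libraries, and whether reads on the shared bases were counted for MRPS24 was not tested. The knockdown was lower than 5-OH-TMT for MRPS24 by 0.72 on the log2 scale (adjusted p = 0.034).

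The other components of mitochondrial translation were taken from lists of genes by role, whose counts in the knockdown stand against 8.08% of all genes called lower and 9.35% higher. Of the 5 mitoribosomal proteins with other names, 2 were called lower in the knockdown: DAP3, a GTP-binding small-subunit protein (FPKM 35.2 ± 0.748 with TNF-α and 29.3 ± 2.06 in the knockdown, SD, n = 3, limma adjusted p = 0.014), and GADD45GIP1 of the large subunit (60.5 ± 1.77 and 48.6 ± 2.67, limma adjusted p = 0.038). Of 19 translation factors 8 were lower, with a median log2 fold change of −0.23. GFM1, the elongation factor that moves the ribosome along, fell by 0.52 (adjusted p = 0.00090), C12orf65, a release factor family member, by 0.42, and SLIRP, which stabilises mitochondrial mRNAs, by 0.40.

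Of 19 mitochondrial aminoacyl-tRNA synthetases that were tested 4 were lower, MARS2 with −0.68 (adjusted p = 0.0014), NARS2 with −0.44, and YARS2 with −0.40 among them. Of 26 assembly and rRNA modification factors 3 were lower (11.5%), a share near that of all genes at this threshold. They were C1QBP at −0.68 (adjusted p = 4.0e-05), the 16S rRNA methyltransferase MRM2 at −0.41 and the pseudouridine synthase TRUB2 at −0.34. The fitted value was below 0 for 23 of the 26, with a median of −0.24. At an unadjusted p under 0.05, 13 were lower and 0 higher, against 15.5% and 15.6% of all genes. Voom called 6 lower and 0 higher, against 9.6% and 10.8%. Of 10 genes of mitochondrial transcription and mtDNA maintenance 3 were lower, TFB2M, SSBP1 and TOP1MT, by 0.41, 0.32 and 0.25. Of the 8 nuclear regulators tested 0 were called in either direction with limma, and 2 were lower and 0 higher at an unadjusted p under 0.05, with 1 called lower by voom. Over the 87 genes of these lists that were tested, 20 were called lower in the knockdown and 0 higher, where 47 and 1 had an unadjusted p under 0.05 (15.5% and 15.6% of all genes) and voom called 32 and 0 (9.6% and 10.8%). With TNF-α and with 5-OH-TMT limma called 0 of the 87. Voom called 1 in each comparison, lower in both, against 1.5% and 0.537% of all genes called lower. At an unadjusted p under 0.05, 1 was lower and 2 were higher with TNF-α, against 5.92% and 8.87% of all genes. With 5-OH-TMT 18 were lower (20.7%) and 3 higher (3.45%), against 10.5% and 9.6%.

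Genes of the cytosolic ribosome, which share no subunit with the mitoribosome, were lower too. Of 80 cytosolic ribosomal protein genes tested 20 (25.0%) were called lower in the knockdown and 0 higher, with a median log2 fold change of −0.21, against 8.08% and 9.35% of all genes. At an unadjusted p under 0.05, 45 were lower and 1 higher, against 15.5% and 15.6%, and voom called 41 and 0, against 9.6% and 10.8%. For 42 of the 80 the knockdown lay below TNF-α without overlap, against 16.4% of all genes. For 34 (42.5%) every knockdown library was below all 9 others, against 7.36% of all genes. Against the 5-OH-TMT libraries, 28 (35.0%) were called lower in the knockdown and 0 higher, where 7.43% and 7.85% of all genes were. These falls were thus not particular to the mitoribosomal genes.

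The RNA components moved the opposite way. MT-RNR2, the 16S rRNA of the large subunit, had an FPKM of 498, 476 and 491 with TNF-α and of 1015, 1160 and 1010 in the knockdown, a log2 fold change of 1.12 (limma adjusted p = 1.5e-05). MT-RNR1, the 12S rRNA of the small subunit, had 551, 503 and 444 with TNF-α and 690, 741 and 763 in the knockdown, a log2 fold change of 0.55 (limma adjusted p = 0.0012). In both cases the knockdown libraries were above all others. The libraries were poly(A)-selected, so these values are not the amounts of total rRNA.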

How the data were processed

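Poly(A)-selected RNA of 12 NCM460 libraries was analysed from 1 table of FPKM per gene. The submitters' processing notes name CASAVA 1.8, HISAT2 2.0.4, HTSeq 0.9.1 and hg38, without roles. The deposited FPKM had the same median of ratios (1.00831) in every library. Rescaling by it therefore divided all values by a common factor and left the ratios between libraries unchanged. Gene coordinates were those of GENCODE 29 for 100% of genes. Multiplied by gene length and 1 constant per library, values became whole reads (100% within 0.05, for values under 10000 reads).

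limma 3.58.1 (R 4.3.3; lmFit, eBayes with trend) took log2(FPKM + 0.1) as input, with 4 group means, for 18079 genes whose FPKM averaged 0.1 or more. Two-sided p-values were adjusted over these genes by Benjamini-Hochberg, and an adjusted p under 0.05 was a call. On this scale changes of low genes are understated. The test was tried on simulated data. An exact permutation of 3 against 3 libraries cannot go below p = 0.1, so none is given.

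Members and lists were chosen with earlier results of these data known. Named were, per comparison, the 5 called members with the largest rise and fall, or the 3 smallest p-values where none was called, the 5 highest and lowest levels, and up to 3 called genes per list. The rule per comparison was not applied to the knockdown against 5-OH-TMT. MRPL10 and members named by role were chosen after their values were seen.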

Additional observations from a re-analysis of the deposited data

How the results depend on the processing

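Pseudocounts of 1 and 0.01, other filters, other scalings, a fit to only the groups compared, no trend, a replicate block, voom on recovered reads and each library left out were tried. In the knockdown 20 to 35 members were called over the settings with all libraries, against 28, and 16 to 29 with 1 library left out; every call was a fall. The median log2 fold change stayed between −0.30 and −0.22. MRPS6 lost its call in the fit to 2 groups (adjusted p = 0.061). With 5-OH-TMT the members called were 0, but 3 with a mean FPKM of at least 1, 7 in the fit to 2 groups and 3 with voom, and the median moved to −0.10 when libraries were rescaled to the same sum and lay between −0.074 and −0.032 with 1 library left out. With TNF-α quantile normalization called 2. For settings other than the main fit and voom, the share of all genes called was not counted. With the replicate block 24 members were called in the knockdown; same-numbered libraries deviated together in no consistent way (correlations of −0.37 to 0.15), so the numbers share only a name. The 5-OH-TMT reference and the background of genes at a mean FPKM of at least 10 were added after seeing the data. The cause of these changes was not tested. The SE of a member's log2 change in the knockdown ran from 0.06 to 0.35, which sets the size of change that 3 libraries a group can show.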
